A study of Homo sapiens and Mus musculus with 12 samples.

Results

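The genes examined here encode the signalling adaptors of activating NK cell receptors: Fcer1g (FCER1G, the Fc receptor γ chain), Cd247 (CD247, the CD3ζ chain), Tyrobp (TYROBP, DAP12) and Hcst (HCST, DAP10). They were taken by symbol from both count tables, which gave 4 of 22021 listed mouse genes and 4 of 18304 listed human genes. Libraries for RNA-seq came from sorted mouse splenic NK cells and from the human NK cell line NK92MI, to ask how loss or inhibition of EHMT2, a methyltransferase of histone H3 lysine 9, changes NK cell expression. WT mice carried loxP-flanked Ehmt2 alleles (Ehmt2 flox/flox), and KO mice carried the same alleles plus an iCre recombinase expressed from Ncr1, the gene of the receptor NKp46, so that deletion follows Ncr1 expression. Both genotypes therefore share the flox alleles, and the mice used in the study were C57BL/6J animals of 8 to 12 weeks. The genotype field of the KO samples names Ezh2, but their titles name EHMT2, and the titles were followed. NK92MI is a single NK lymphoma line that makes its own IL-2. Its cells received BIX-01294, an inhibitor of EHMT2 and the related EHMT1, or the solvent DMSO. Functional experiments with these cells used 0.25 µM for 5 days, and no separate dose or time for RNA-seq was found. Each of the 4 groups had 3 libraries. The labels do not say that these came from separate animals or cultures, so p-values measure the spread between these libraries, which may be technical.

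Activating NK cell receptors mostly have short intracellular tails and signal through adaptors held to them within the membrane. Fc receptor γ, CD3ζ and DAP12 carry immunoreceptor tyrosine-based activation motifs (ITAMs), in which a pair of tyrosines, once phosphorylated by Src family kinases, recruits SYK or ZAP70. Fc receptor γ and CD3ζ serve CD16, NKp46 and NKp30, and CD3ζ also serves the T cell receptor. DAP12 serves NKp44, CD94/NKG2C and the activating Ly49 and KIR receptors. DAP10 has a YINM motif instead, which recruits PI3K and GRB2, and it serves NKG2D. Fc receptor γ and DAP12 are also abundant in macrophages, neutrophils and other myeloid cells, where they serve Fc and TREM receptors.

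The motifs that give these adaptors their function are shown as coding sequence, since they separate the ITAM adaptors from DAP10. A search of the principal coding sequences found 1 ITAM in Fcer1g, 3 in Cd247 and 1 in Tyrobp, and 1 YxNM motif in Hcst, with the same numbers in human. Each stretch is written 5′ to 3′ on the coding strand, and capitals mark the codons of the motif tyrosines. Every stretch spans more than 1 exon, so it is not a continuous genomic run.
Fcer1g ITAM (GRCm38, chr1:171229889-171230072, minus strand): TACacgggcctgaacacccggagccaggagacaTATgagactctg
FCER1G ITAM (GRCh38, chr1:161218718-161218919, plus strand): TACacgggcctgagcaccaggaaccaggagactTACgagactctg
Cd247 ITAM 1 (GRCm38, chr1:165856451-165857454, plus strand): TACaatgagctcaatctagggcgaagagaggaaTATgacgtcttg
Cd247 ITAM 2 (GRCm38, chr1:165858473-165859260, plus strand): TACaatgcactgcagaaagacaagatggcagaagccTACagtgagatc
Cd247 ITAM 3 (GRCm38, chr1:165859819-165861042, plus strand): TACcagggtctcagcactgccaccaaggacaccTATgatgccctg
Tyrobp ITAM (GRCm38, chr7:30415670-30417382, plus strand): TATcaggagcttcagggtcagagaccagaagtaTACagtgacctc
TYROBP ITAM (GRCh38, chr19:35904596-35907223, minus strand): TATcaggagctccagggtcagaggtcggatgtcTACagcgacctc
Hcst YINM stretch (GRCm38, chr7:30417809-30418088, minus strand): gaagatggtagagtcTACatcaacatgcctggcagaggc
HCST YINM stretch (GRCh38, chr19:35903903-35904157, plus strand): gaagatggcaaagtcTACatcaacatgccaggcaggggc

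The Hcst and HCST stretches hold 1 capital codon each, and the ITAM stretches hold a pair. Mouse and human agreed at 40 of 45 bases for the Fcer1g ITAM, 38 of 45 for the Tyrobp ITAM and 35 of 39 for the Hcst stretch. For the Cd247 ITAMs identity was 84.4%, 89.6% and 88.9%. The coding sequences are short: Fcer1g has 86 codons in both species, Cd247 164 in both, Tyrobp 114 in mouse and 113 in human, and Hcst 79 in mouse and 93 in human.

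Tyrobp and Hcst are neighbours in both genomes. In GRCm38 Tyrobp lies on chromosome 7 from 30413760 to 30417585 on the plus strand and Hcst from 30417712 to 30419854 on the minus strand. Their 3′ ends face each other with 126 bp between them, and no exon is shared. In GRCh38 HCST (chromosome 19, 35902529 to 35904377, plus strand) and TYROBP (35904401 to 35908295, minus strand) face each other in the same way, 23 bp apart. Fcer1g and Cd247 both lie on chromosome 1, Fcer1g from 171229572 to 171234365 on the minus strand and Cd247 from 165788681 to 165877277 on the plus strand. In human, FCER1G lies on chromosome 1 from 161215234 to 161220699 on the plus strand and CD247 from 167425027 to 167518640 on the minus strand. The Cd247 exons overlap those of Pou2f1, a transcription factor gene on the opposite strand, over 3007 bp, or 56.4% of the annotated Cd247 exon length. In human the overlap is 784 bp, or 8.4%. HCST exons overlap an unnamed antisense transcript over 258 bp, or 45.7% of their length. The strand setting of the counting is not given in the sources used here, and without strand the reads of such partners cannot be told apart.

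Mouse libraries held 25891680 (WT replicate 2) to 37438868 counts and human libraries 16579469 to 17165446. Expression is given as TMM-normalized CPM (counts scaled to library size), and a gene was called when the quasi-likelihood test of edgeR gave it an adjusted p under 0.05. Ehmt2 was lower in KO (137 to 171 CPM) than in WT NK cells (275 to 285 CPM), with a log2 fold change of −0.91 (adjusted p = 0.0162, edgeR). EHMT2 was lower with BIX (35.8 to 40.4 CPM) than with DMSO (54.3 to 61.6 CPM), with a log2 fold change of −0.58 (adjusted p = 0.000101, edgeR). The spleen libraries held the listed NK cell markers at 5480 to 12292 CPM in sum, but also markers of other cells. Some of these differed between genotypes (values follow the mouse results). WT replicate 2 was nearer to the KO libraries than the other WT libraries were in the NK cell, macrophage, neutrophil, T cell and B cell sums.

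All 4 adaptors had higher mean levels in KO than in WT NK cells by TMM scaling, and Cd247 was the 1 that was called. Its level rose 1.62-fold. Fcer1g and Tyrobp had fitted folds of 1.23 and 1.24 with no overlap between genotypes, but did not pass the test, and Hcst had a fold of 1.36 with overlap. In all genes tested, 4.44% were called higher and 7.43% lower in KO (585 and 980 of 13189). All 4 directions turned negative when libraries were scaled to NK cell markers instead. Those markers include genes that the study reports as raised in KO NK cells.

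Cd247, the adaptor with 3 ITAMs, was counted at 169, 181 and 166 CPM in KO replicates 1, 2 and 3, and at 93.7, 126 and 99.8 CPM in WT replicates 1, 2 and 3. Every KO library lay above every WT library, with 40.0 CPM between the groups, and WT replicate 2 was the highest of its group. The log2 fold change was 0.69 (standard error, SE, 0.12, 95% interval 0.42 to 0.97, adjusted p = 0.0279 by edgeR). The exact two-sided permutation test gave p = 0.1, the smallest that 3 against 3 libraries allow. Leaving out WT replicate 2 gave a log2 fold change of 0.83 with an adjusted p of 0.00235 by edgeR. The call was lost without KO replicate 2 (adjusted p = 0.124), KO replicate 3 (0.131), WT replicate 1 (0.0705) or WT replicate 3 (0.118), all by edgeR. With the thresholds used in the study, 0.01 for the adjusted p and 0.5 for the size of the log2 fold change, edgeR called 0% of mouse genes in either direction, Cd247 included. At an unadjusted p under 0.05 it found 2080 higher and 2639 lower genes, and DESeq2 called 401 higher and 1099 lower at the study's thresholds. By DESeq2, Cd247 had a log2 fold change of 0.69 and an adjusted p of 2.17e-05, past the study's thresholds. Pou2f1, whose exons it overlaps, had a log2 fold change of 0.18 (adjusted p = 0.284, edgeR).

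Fcer1g, the γ chain of Fc receptors, was counted at 1210, 1079 and 1075 CPM in KO replicates 1 to 3 and at 950, 948 and 830 CPM in WT replicates 1 to 3. The KO libraries were all above the WT libraries. The log2 fold change was 0.30 (SE 0.11, 95% interval 0.06 to 0.55), and its adjusted p of 0.09 by edgeR missed the threshold. DESeq2 gave 0.0281.

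Tyrobp, which encodes DAP12, stood at 1081, 1020 and 958 CPM in KO replicates 1 to 3 and at 853, 868 and 738 CPM in WT replicates 1 to 3. Again no WT library reached a KO library. The log2 fold change was 0.32 (SE 0.11, 95% interval 0.07 to 0.56), with an adjusted p of 0.082 by edgeR and of 0.0236 by DESeq2. For Fcer1g and Tyrobp the exact permutation p was 0.1. Over all genes tested, 19.1% had every KO library above every WT library, and 3 of the 4 adaptors did.

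Hcst, the DAP10 gene next to Tyrobp, stood at 120, 131 and 122 CPM in KO replicates 1 to 3 and at 72.1, 127 and 74.8 CPM in WT replicates 1 to 3. WT replicate 2 lay within the KO range, and the other WT libraries lay far below it. The log2 fold change was 0.45 (SE 0.21, 95% interval −0.04 to 0.93) and was not called (adjusted p = 0.164, edgeR; exact permutation p = 0.3). Without WT replicate 2 it was 0.76 with an adjusted p of 0.00262 by edgeR. Hcst and its neighbour Tyrobp thus had different patterns over the WT libraries, since Tyrobp in WT replicate 2 was 868 CPM against 853 CPM in WT replicate 1.

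**Figure D1:**
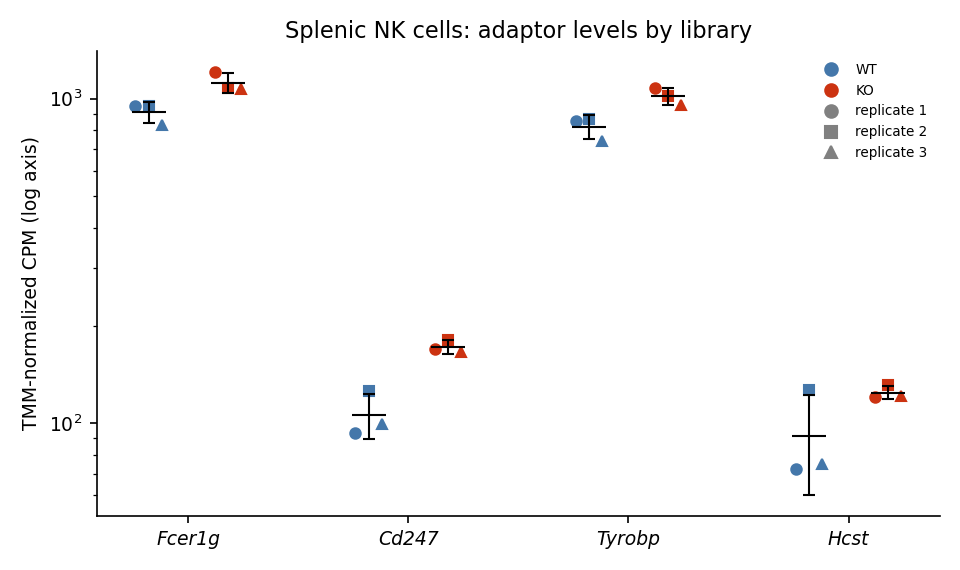
TMM-normalized CPM (log axis) of Fcer1g, Cd247, Tyrobp and Hcst in each WT (blue) and KO (red) splenic NK library, with marker shapes for the replicate numbers; black lines are the mean and SD of 3 libraries. The KO libraries lie above the WT libraries for Fcer1g, Cd247 and Tyrobp, and WT replicate 2 of Hcst (127 CPM) lies among the KO libraries; scaled to NK cell markers, the mean change of each gene is negative.

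Marker sums of KO and WT did not overlap for NK cells, macrophages and monocytes, B cells, or mast cells, basophils and platelets. Those of neutrophils, T cells and dendritic cells overlapped. For the counts of calls below, 4.44% of all genes tested were called higher and 7.43% lower. The 12 NK cell markers summed to 10439, 12292 and 12074 CPM in KO replicates 1 to 3 and to 5480, 9300 and 5715 CPM in WT replicates 1 to 3, and 7 of the 12 were called higher, with 0 called lower. The 12 macrophage and monocyte markers summed to 3224, 1835 and 2355 CPM in KO and to 8300, 3390 and 6260 CPM in WT replicates 1 to 3, with 7 called lower. Lyz2, which encodes lysozyme, and Csf1r, the receptor for the macrophage growth factor CSF1, had the highest levels on that list, at 827 and 384 CPM in KO and 1339 and 887 CPM in WT. Neutrophil markers summed to 29.8 to 151 CPM in KO and 134 to 1093 CPM in WT, with 2 of 9 tested called lower. B cell markers summed to 43.4 to 387 CPM in KO and 434 to 1255 CPM in WT, with 1 of 8 called lower. Mast cell, basophil and platelet markers summed to 1411 to 1537 CPM in KO and 1766 to 2777 CPM in WT, with 1 of 11 called lower. T cell marker sums were 95.7 to 206 and 147 to 246 CPM, with 1 of 7 called higher. Dendritic cell marker sums were 1233 to 1472 and 1186 to 1506 CPM, with 2 of 10 called lower. These overlapping sums rested mostly on Itgax, with means of 1038 (KO) and 784 CPM (WT). Its log2 fold change of 0.41 was not called (adjusted p = 0.207, edgeR). The fitted values of the remaining 9 dendritic cell markers were all negative, and the list median was −0.79. No marker on these lists that the table holds was at 0. In bulk samples, fewer cells of a type and less RNA per cell cannot be told apart, and the part of these shifts in the adaptor values was not tested.

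Scaling the mouse libraries to the 12 NK cell markers moved the median log2 fold change of all genes from 0.01 to −0.82. On that scale Fcer1g was at −0.52, Cd247 at −0.11, Tyrobp at −0.51 and Hcst at −0.31, and no adaptor was called (adjusted p = 0.0707, 0.694, 0.0758 and 0.257 by edgeR). Each adaptor was thus above the median gene on either scale, but below the NK cell markers in sum.

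**Figure D2:**
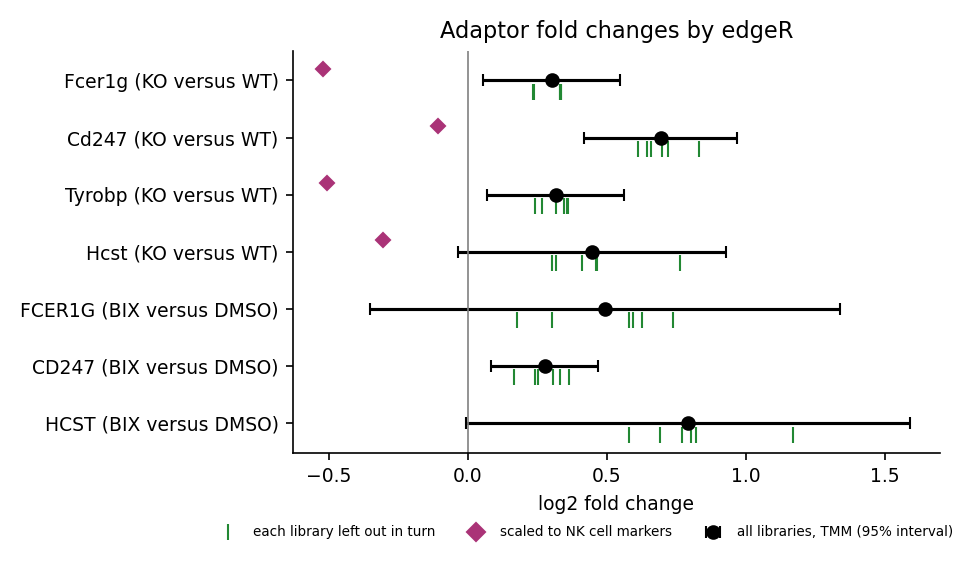
Log2 fold changes of the 7 tested adaptors (black, with 95% intervals, edgeR with TMM scaling), with each library left out in turn (green ticks) and, in mouse, with libraries scaled to NK cell markers (purple diamonds). The interval of Cd247 in KO versus WT lies above 0 with TMM scaling, while the diamonds of all 4 mouse genes lie below 0, from −0.52 to −0.11.

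Ratios between adaptors within a library do not depend on the scaling, so they were compared directly. They do depend on the mix of cells in a library, and the part of the lower macrophage marker sum of KO in them was not tested. Cd247 gained on Fcer1g and on Tyrobp in the KO libraries, but not past the adjustment. Fcer1g and Tyrobp kept nearly the same ratio to each other. Counts of Fcer1g were 5.96 to 7.16 times those of Cd247 in KO and 7.55 to 10.1 times in WT libraries, without overlap. The log2 ratio differed by −0.40 (exact permutation p = 0.1, adjusted p = 0.4 over 12 ratios). The log2 ratio of Cd247 to Tyrobp was higher in KO by 0.39 and that of Cd247 to Hcst by 0.21, both without overlap and with an exact permutation p of 0.1. The ratio of Fcer1g to Tyrobp was 1.06 to 1.12 in KO and 1.09 to 1.12 in WT, a log2 difference of −0.01 (exact permutation p = 0.8). The ratios of Fcer1g and Tyrobp to Hcst overlapped between genotypes, with log2 differences of −0.19 (exact permutation p = 0.5) and −0.18 (exact permutation p = 0.6). Without WT replicate 2 the difference for Cd247 to Hcst was 0.07, and those of Fcer1g and Tyrobp to Hcst were −0.42 and −0.40, while without WT replicate 1 the latter pair came to −0.01 and −0.0027. With each library left out, Fcer1g to Cd247 stayed between −0.49 and −0.28 and Cd247 to Tyrobp between 0.27 and 0.47. No ratio passed after adjustment, which the smallest possible p of 0.1 does not allow.

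**Figure D3:**
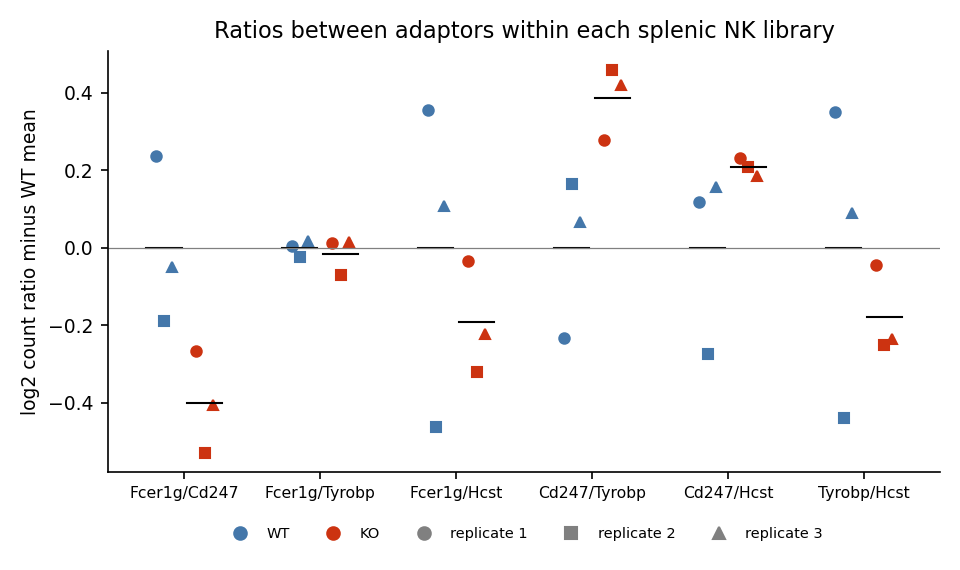
Log2 ratio of the counts of each pair of adaptors within a splenic NK library, minus the WT mean of that ratio, for WT (blue) and KO (red) libraries; black lines are group means of 3 libraries. Fcer1g/Cd247 lies lower and Cd247/Tyrobp and Cd247/Hcst lie higher in every KO than in every WT library, and Fcer1g/Tyrobp stays close to 0 in all of them.

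Per kilobase of annotated exon, Tyrobp had the highest level of the adaptors in spleen NK cells, at 1437 to 1621 CPM per kb in KO and 1107 to 1302 in WT. Fcer1g followed at 1229 to 1384 and 950 to 1087 CPM per kb, below Tyrobp in both groups without overlap. Hcst stood at 167 to 181 and 99.8 to 176 CPM per kb, and Cd247 was lowest at 31.1 to 34.0 and 17.6 to 23.6. Per kilobase of the principal transcript, a length chosen after seeing the data, the order of the means was the same, with Cd247 at 101 to 111 in KO and 57.4 to 77.0 in WT, but the ranges of Tyrobp and Fcer1g then overlapped. Among the protein-coding genes listed, Fcer1g and Tyrobp were at the 99.9th percentile of mean level per exon length, Hcst at the 98.6th and Cd247 at the 90.4th. Together the 4 genes took 0.232% to 0.261% of all counts in KO and 0.174% to 0.206% in WT libraries.

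In NK92MI cells the adaptors were expressed very unevenly. CD247 stood at 127 to 186 CPM and rose 1.21-fold with BIX-01294. FCER1G, HCST and TYROBP did not exceed 1.42 CPM in any of the 6 libraries, at 4 to 24 counts each. In this comparison 18.4% of the genes tested were called higher (2348 of 12727) and 18.4% lower (2344), so a call was common.

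CD247 was counted at 155, 142 and 186 CPM in BIX replicates 1, 2 and 3 and at 127, 143 and 129 CPM in the DMSO libraries. The control columns carry no replicate number that links them to the numbered DMSO samples, so they are called A, B and C here as names. The groups overlapped, since library B lay just above BIX replicate 2, and BIX replicate 3 was the highest. The log2 fold change was 0.28 (SE 0.09, 95% interval 0.08 to 0.47, adjusted p = 0.0265 by edgeR), and the exact permutation p was 0.2. The call was lost without BIX replicate 3 (log2 fold change 0.17, adjusted p = 0.0738), without library A (0.24, adjusted p = 0.105) or without library C (0.25, adjusted p = 0.106), each by edgeR. CD247 was not among the 6.24% of genes (794) called higher at the study's thresholds. POU2F1, which overlaps it, had a log2 fold change of −0.09 (adjusted p = 0.572, edgeR).

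HCST had 19, 21 and 20 counts in BIX replicates 1 to 3 and 8, 10 and 17 counts in DMSO libraries A to C. Every BIX library was above every DMSO library, as for 24.1% of all genes tested. HCST passed the filter on low counts through the BIX group, so the filter itself favoured a higher value with BIX, and it was not called (log2 fold change 0.79, SE 0.37, 95% interval −0.01 to 1.59, adjusted p = 0.111 by edgeR). FCER1G had 16, 17 and 24 counts with BIX and 7, 18 and 16 with DMSO, with overlap. Its log2 fold change of 0.49 (SE 0.39, adjusted p = 0.355 by edgeR) was not resolved at this depth. A count of 7 has an exact Poisson 95% interval of 2.81 to 14.4, which covers counting error only.

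TYROBP had 9, 4 and 7 counts with BIX and 7, 4 and 5 with DMSO, and was removed by the filter. Fitted without a filter, its log2 fold change was 0.35 (SE 0.63, adjusted p = 0.763 by edgeR), so no difference was detectable at this depth. In mouse spleen NK cells its counterpart was among the highest genes, and in NK92MI cells it was at the 24.4th percentile of protein-coding genes per exon length. FCER1G was at the 31.1 percentile, HCST at 35.6 and CD247 at 76.5. Among listed protein-coding genes of like exon length, whose median levels were 1.32, 1.03 and 0.275 CPM for the length classes of FCER1G, TYROBP and HCST, these genes were at percentiles 47.4, 33.2 and 66.7, so FCER1G and HCST were not low for their length. CD247 was at percentile 81.6 of its class. Species, cells and table differ together here, so the mouse and human levels are given side by side and were not compared.

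**Figure D4:**
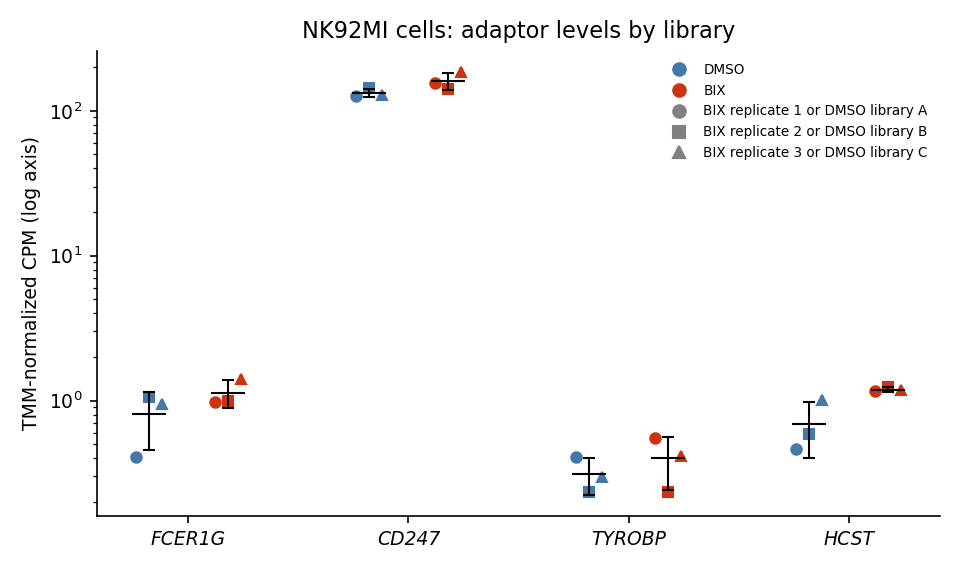
TMM-normalized CPM (log axis) of FCER1G, CD247, TYROBP and HCST in each DMSO (blue) and BIX (red) NK92MI library; marker shapes tell libraries apart and pair none, and black lines are the mean and SD of 3 libraries. CD247 lies at 127 to 186 CPM and the other adaptors lie at 0.23 to 1.42 CPM, with overlap between treatments for all but HCST.

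CD247 stood at 15.2 to 19.8 CPM per kb of annotated exon with BIX and 13.6 to 15.3 with DMSO, and at 88.7 to 116 and 79.4 to 89.4 per kb of its principal transcript. HCST came next at 2.05 to 2.19 and 0.825 to 1.78, followed by FCER1G at 1.01 to 1.47 and 0.423 to 1.09 and by TYROBP at 0.259 to 0.604 and 0.258 to 0.449, all per kb of annotated exon. In DMSO libraries the ranges of HCST and FCER1G overlapped, as did those of FCER1G and TYROBP. These neighbours in the order thus did not differ beyond their spread with DMSO. With BIX the same ranges did not overlap. Per kb of principal transcript the DMSO means of FCER1G and HCST were 1.36 and 1.22, the reverse order. On that length their BIX ranges overlapped, at 1.65 to 2.40 and 2.05 to 2.19. Counts of CD247 were 115 to 157 times those of HCST with BIX and 128 to 273 times with DMSO, a log2 difference of −0.60 (exact permutation p = 0.3). The other 5 human ratios had exact permutation p-values of 0.5 to 0.9, and 4 of them changed sign when 1 library was left out. The adaptors took 0.0145% to 0.0187% of all counts with BIX and 0.0129% to 0.0144% with DMSO.

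Markers of other cells were also counted in NK92MI. For the counts of calls below, 18.4% of all genes tested were called higher and 18.4% lower. The macrophage and monocyte sum was 9.17 to 10.7 CPM with BIX and 3.68 to 5.12 CPM with DMSO, with 4 of 12 markers listed and both tested ones, CSF1R and VCAM1, called higher. The neutrophil sum was 0.470 to 1.06 and 0.935 to 1.57 CPM, and the mast cell, basophil and platelet sum 1.16 to 2.18 and 0.757 to 1.29 CPM, each with 1 marker tested and none called. T cell markers summed to 753 to 905 and 727 to 774 CPM, most of it CD3E (552 and 493 CPM), with 0 of 4 tested called by edgeR. B cell markers summed to 39.2 to 43.7 and 36.5 to 41.7 CPM with 2 of 4 called higher and 1 lower, and dendritic cell markers to 112 to 120 and 146 to 152 CPM, with 2 of 3 called lower. The NK cell markers summed to 7811 to 9882 CPM with BIX and 6044 to 6536 CPM with DMSO, with 6 of 12 called higher and 3 lower. CD247 moved in the same direction as that sum, and the part of this in its value was not tested.

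Receptors that use Fc receptor γ or CD3ζ went both ways in KO NK cells. Of 17 tested, 4 were called higher and 3 lower, against 4.44% and 7.43% of all genes, and the median log2 fold change was −0.50 against 0.01 for all genes. Their summed level went the other way from that median, at 1714 to 1980 CPM in KO and 1374 to 1604 CPM in WT libraries without overlap. The C-type lectins Klrb1a (176 against 82.6 CPM, log2 fold change 1.09, adjusted p = 0.0269), Klrb1f (0.92, adjusted p = 0.0326) and Klrb1c (0.81, adjusted p = 0.0462), which encodes NK1.1, rose, as did Cd3g, a T cell receptor subunit (0.59, adjusted p = 0.0452), all by edgeR. The Fc receptor Fcgr3, which encodes mouse CD16, fell by 0.82 on the log2 scale (99.6 ± 17.2 against 176 ± 39.4 CPM, SD, n = 3; adjusted p = 0.0412 by edgeR). Pira2, an activating immunoglobulin-like receptor of myeloid cells, and Gp6, the collagen receptor of platelets, had log2 fold changes of −1.60 and −0.72 (adjusted p = 0.0456 and 0.0481 by edgeR). The macrophage sum and the mast cell, basophil and platelet sum given above were lower in KO as well, and their part in these values was not tested. Ncr1, which encodes NKp46 and drives the Cre, had a log2 fold change of 0.42 and was not called (adjusted p = 0.185, edgeR). It was looked up after the values were seen, because it is the Cre locus. Without WT replicate 2, 5 of these receptors were called higher and 7 lower. That fit called 1433 higher and 2097 lower genes in all, against 585 and 980 with every library kept. Without KO replicate 2 or without KO replicate 3, edgeR called 0 genes, these receptors included.

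Genes listed as receptors of DAP12 or DAP10 also went both ways. Of 21 tested, 4 were called higher and 2 lower, against 4.44% and 7.43% of all genes, and the list median was −0.70. Their summed level was 3115 to 3223 CPM in KO and 2012 to 2772 CPM in WT libraries, higher in every KO library. Of the 21 fitted values 15 were negative, with receptors of myeloid cells and, as with Siglech, of dendritic cells among them. The part of the lower macrophage marker sum and of the dendritic cell markers in these was not tested. Klrk1, which encodes NKG2D, the partner of DAP10, rose from 516 ± 158 to 942 ± 66.9 CPM (SD, n = 3; log2 fold change 0.87, adjusted p = 0.0414 by edgeR). Klrd1 (0.84, adjusted p = 0.0416) and Klrc2 (0.87, adjusted p = 0.0465), which encode CD94 and NKG2C and form a receptor that uses DAP12, rose with it, as did Cd200r4, an activating receptor of the CD200 receptor family (0.71, adjusted p = 0.0452), by edgeR. Siglech, a lectin of plasmacytoid dendritic cells, and Siglecf, a lectin of eosinophils, fell by 1.30 and 0.92 on the log2 scale (adjusted p = 0.0481 for both, edgeR). Siglecf is not an established partner of either adaptor, but it is counted in the numbers given for this list. Klrb1c, Klrk1 and Klrd1 are also among the NK cell markers. Scaled to those markers, the called receptors that rose had log2 fold changes of 0.32 (Klrb1a), 0.13 (Klrb1f), 0.04 (Klrb1c), 0.10 (Klrk1), 0.07 (Klrd1) and 0.11 (Klrc2), while Cd3g and Cd200r4 turned to −0.25 and −0.07. Without WT replicate 2, 6 were called higher and 10 lower, in a fit with 1433 higher and 2097 lower genes in all.

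Downstream of the motifs, 4 of 45 genes of ITAM and YINM signalling were called higher and 5 lower in KO libraries, against 4.44% and 7.43% of all genes, and the list median was 0.06. The kinase Lck and the regulators Ubash3a, a phosphatase family protein, and Cblb, a ubiquitin ligase, rose, with log2 fold changes of 0.55 to 0.77. Scaled to NK cell markers these genes were at −0.27 to −0.05. Lyn, Btk and Vav2 fell by 0.67, 1.11 and 0.83 on the log2 scale; Lyn and Btk are kinases common in myeloid or B cells, and Vav2 is a guanine nucleotide exchange factor. Their adjusted p-values by edgeR lay between 0.0345 and 0.0456. The adaptors' direct kinases, Zap70 (0.66, adjusted p = 0.0554) and Syk (−0.23, adjusted p = 0.127), were not called by edgeR, and they are named for that role, after their values were seen. Without WT replicate 2, 9 were called higher and 10 lower, in a fit with 1433 higher and 2097 lower genes in all.

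Of 19 other signalling adaptors tested in mouse, 3 were called higher and 2 lower, against 4.44% and 7.43% of all genes, and the list median was −0.08. Sh2d1b2, which encodes the SLAM adaptor ERT, rose from 1.38 ± 0.501 to 7.65 ± 3.67 CPM (SD, n = 3; log2 fold change 2.48, adjusted p = 0.0279 by edgeR). Dok2 and Lax1, adaptors that dampen kinase signalling, rose by 0.93 and 0.59 on the log2 scale (adjusted p = 0.0327 and 0.0452). Themis2, found mainly in B cells and macrophages, and Fyb, an adaptor that links receptors to integrins, fell by 0.83 and 0.37 (adjusted p = 0.0419 and 0.0413, edgeR). Scaled to NK cell markers, Sh2d1b2 was at 1.68, Dok2 at 0.15 and Lax1 at −0.21, with Themis2 at −1.69 and Fyb at −1.22.

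With BIX-01294 more of the downstream genes were called lower than higher, while CD247 rose. Of 42 tested genes of ITAM and YINM signalling, 21 were called lower and 7 higher, against 18.4% of all genes in each direction, and the median log2 fold change was −0.19 against −0.01 for all genes. SH3BP2, an adaptor of SYK and ZAP70, fell from 150 ± 3.92 to 86.3 ± 2.74 CPM (SD, n = 3; log2 fold change −0.80, adjusted p = 7.06e-07 by edgeR). The Src family kinase FYN and the regulator UBASH3A fell by 0.66 and 0.71 on the log2 scale (adjusted p = 4.37e-06 and 1.78e-05, edgeR). ZAP70, the kinase that binds the CD3ζ ITAMs, fell from 271 ± 14.8 to 192 ± 10.6 CPM (SD, n = 3; log2 fold change −0.50, adjusted p = 7.47e-05 by edgeR), and SYK stayed at 48.5 and 48.8 CPM (adjusted p = 0.93, edgeR). PAG1, a membrane scaffold for the kinase CSK, MALT1, a protease of NF-kB signalling, TEC, a kinase, and SOS1, an exchange factor for RAS, rose by 0.51, 0.39, 0.66 and 0.39 (adjusted p = 0.000273, 0.000586, 0.00451 and 0.00461, edgeR).

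Among FCER1G- or CD247-paired receptors in NK92MI, 7 of 19 were listed and 6 tested, of which 3 were called higher and 1 lower, against 18.4% of all genes in each direction. FCGR3A, which encodes CD16, rose from 17.1 ± 2.26 to 30.8 ± 2.58 CPM (SD, n = 3; log2 fold change 0.85, adjusted p = 6.23e-05 by edgeR). NCR3, which encodes NKp30, rose from 322 ± 24.0 to 448 ± 81.8 CPM (0.48, adjusted p = 0.00271), and LILRA2, an activating leukocyte receptor, rose from 4.35 to 8.35 CPM (0.94, adjusted p = 0.00197). NCR1, which encodes NKp46, fell by 0.35 on the log2 scale (27.8 to 21.8 CPM, adjusted p = 0.0128). CD247, which with FCER1G serves CD16, NKp30 and NKp46, had means of 14.2 and 17.2 CPM per kb of annotated exon in DMSO and BIX. FCER1G was at 0.832 and 1.17 on that length. Per kb of principal transcript, a length chosen after seeing the data, CD247 was at 83.1 and 101 and FCER1G at 1.36 and 1.92.

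Among DAP12- or DAP10-paired receptors, 13 of 21 were listed and 9 tested, with 3 called higher and 2 lower, against 18.4% of all genes in each direction. KLRD1 rose from 19.3 to 30.3 CPM (log2 fold change 0.65, adjusted p = 0.000481), NCR2, which encodes NKp44, from 17.1 to 22.6 CPM (0.40, adjusted p = 0.011), and CD300LB, a myeloid receptor, from 0.998 to 3.24 CPM (1.70, adjusted p = 0.00115), by edgeR. KLRC3, which encodes NKG2E, and SIRPB1, a myeloid receptor, fell by 1.01 and 1.24 on the log2 scale (adjusted p = 0.00287 and 0.0176). KLRK1, the NKG2D gene, was low at 3.38 CPM with BIX and 3.28 CPM with DMSO (adjusted p = 0.905, edgeR), as was its partner HCST. Among other signalling adaptors, with the same 18.4% as background, 2 of 15 were called higher, SKAP2 (0.30) and CD79A (1.02), and 5 lower, with PSTPIP1 (−1.13), SH2D2A (−0.77), DOK3 (−1.49) and SKAP1 (−0.36) of smallest adjusted p, between 3.31e-07 and 0.000398 by edgeR. The 4 named lower ones are scaffold or inhibitory adaptors of lymphocyte kinase signalling.

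**Figure D5:**
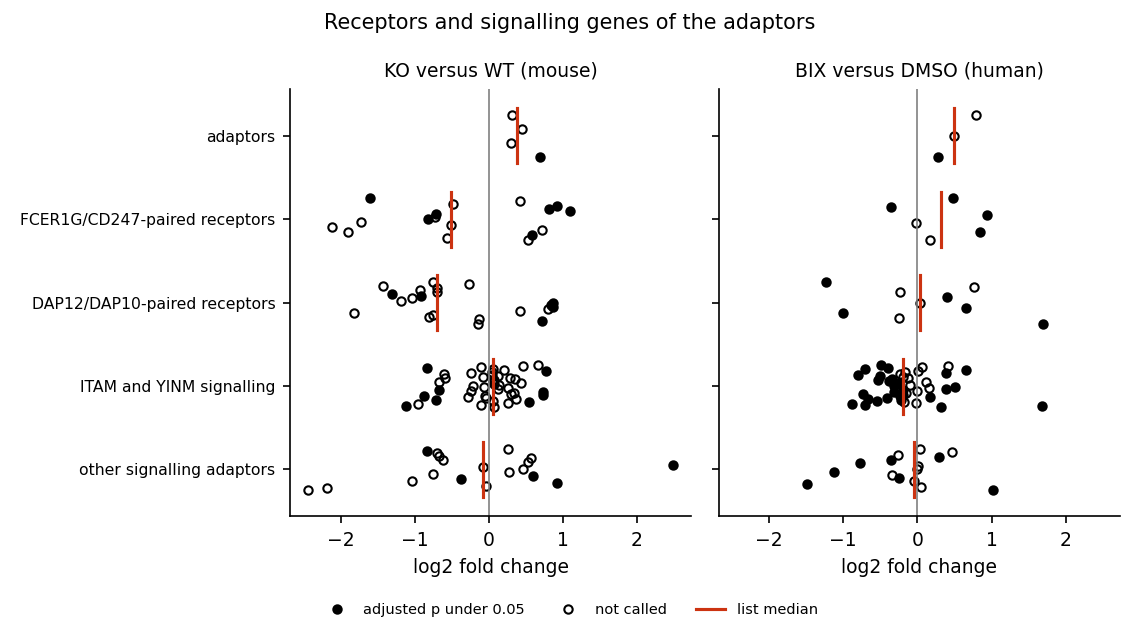
Log2 fold changes (edgeR, TMM scaling) are shown for the adaptors, receptors listed as their partners, ITAM and YINM signalling genes and other signalling adaptors. KO versus WT splenic NK cells are on the left and BIX versus DMSO NK92MI cells on the right. Filled points are called, open points are not, and red lines are list medians. The mouse adaptors lie between 0.30 and 0.69 with TMM scaling (below 0 when scaled to NK cell markers), and 21 of 42 human signalling genes are called lower.

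Likeness of pattern was measured as Pearson's r of log2 CPM over the 6 libraries of a species, among tested genes with a mean log2 CPM of at least 5 (5976 in mouse and 6206 in human). With 6 points that share 2 groups and their depths, these values are descriptions. Fcer1g was most like Med28 (r = 0.995) and Tpra1 (0.991), and Tyrobp most like Med28 (0.995) and Ociad1 (0.994), so both abundant adaptors had the same nearest gene. Cd247 was most like Atg4d (0.999) and Rabif (0.999), and Hcst most like the inhibitory Ly49 receptor Klra3 (0.995) and Uimc1 (0.993). In human, CD247 was most like GRN (0.996) and C2CD2L (0.996). For FCER1G (UBR7, 0.969, and ZNF746, 0.942) and HCST (RMC1, 0.989, and LIN9, 0.977) the values rest on 7 to 24 counts a library.

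The human promoters, from 250 bases before to 50 after each gene's start in RefSeq's GRCh38.p14, were searched on both strands for short motifs. The window of FCER1G held 9 copies of GGAA, the core bound by ETS factors, and 1.63% of 35116 promoters held as many. The windows of HCST, CD247 and TYROBP held 4, 2 and 2 copies, with a median of 3 over all promoters. TGTGGT, a motif of RUNX factors, occurred 1 time each in FCER1G, HCST and TYROBP and 0 times in CD247, and 13.1% of promoters held it. CpG dinucleotides numbered 9, 6, 3 and 8 in FCER1G, CD247, HCST and TYROBP, against a median of 14. All 4 windows were thus below the median in CpG. Whether any of these motifs is bound in NK92MI cells, or bears on the levels, was not tested.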

How the data were processed

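RNA-seq counts of sorted splenic NK cells (3 WT, 3 KO) and NK92MI cells (3 DMSO, 3 BIX) were analysed. The authors trimmed reads with fastp 0.23.4, aligned them with STAR 2.7.11b, allowing 2 mismatches, to GRCm38 or GRCh38, and counted them per gene with HTSeq 2.0.3; per the submitters' processing notes DESeq2 was also used. The deposited values are raw counts per gene symbol. The kit was polyA-selected; strand setting and annotation release are not given in the sources used here, and positions and lengths come from GENCODE annotations of the same builds.

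Each species was fitted separately in R 4.3.3 with edgeR 4.0.16 (TMM, filterByExpr, quasi-likelihood test, Benjamini-Hochberg adjustment over all genes tested). Alternatives used DESeq2 1.42.0, limma-voom (3.58.1), other size factors and filters, NK cell marker scaling, a replicate block and each library left out. Single values were tested by exact two-sided permutation. The procedure was tested on simulated data. The adaptors and gene lists were chosen with earlier results of these data known, and so were the rules for naming genes: on each receptor or signalling list at most 4 called genes in each direction by smallest adjusted p, on other-cell lists at most 2 by level, and the 2 nearest genes by Pearson's r (prior count 2). Values of genes named outside this rule are marked where they stand. Some genes that this rule selects are not reported here.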

Additional observations from a re-analysis of the deposited data

How the results depend on the processing

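Directions of all 4 mouse adaptors held under every alternative but 1: scaled to NK cell markers they turned to −0.52 (Fcer1g), −0.11 (Cd247), −0.51 (Tyrobp) and −0.31 (Hcst). With each library left out, log2 fold changes were 0.24 to 0.34 for Fcer1g, 0.61 to 0.83 for Cd247, 0.24 to 0.36 for Tyrobp and 0.30 to 0.76 for Hcst, and Cd247 was called in 2 of 6 such fits. DESeq2 called Fcer1g (0.29) and Tyrobp (0.31). Whether the KO and WT replicate numbers pair the libraries could not be told from 3 libraries a group. Correlations of deviations were 0.281, 0.352 and −0.188, and not every library was most like its own number. With the replicate number as a block, Tyrobp (0.32, adjusted p = 0.0419) and Hcst (0.50, adjusted p = 0.0477) were called, Cd247 kept its call (adjusted p = 0.00478), and the genes called were 1292 higher and 1930 lower.

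Calls of 585 higher and 980 lower genes became 1097 and 1997 by DESeq2, 35 and 8768 with NK cell marker scaling, and 0 and 0 at the study's thresholds in edgeR (DESeq2: 401 and 1099). Leaving out a library gave 0 to 1433 higher and 0 to 2097 lower genes. The counts of 0 came without KO replicate 2 (1295 higher and 1913 lower at an unadjusted p under 0.05, edgeR) and without KO replicate 3 (1372 and 1915). WT replicate 1 or 3 left out gave 35 or 6 higher genes, and WT replicate 2 left out gave 1433. The cause was not tested, beyond the smaller number of libraries.

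In human, the directions of CD247, FCER1G and HCST held under the alternatives run. With each library left out, the log2 ratio differences changed sign for FCER1G to CD247 (−0.08 to 0.52), FCER1G to TYROBP (−0.36 to 0.73), FCER1G to HCST (−0.48 to 0.04) and CD247 to TYROBP (−0.29 to 0.26). In mouse, Fcer1g to Tyrobp, near 0, did so too (−0.03 to 0.01). CD247 was at 0.17 to 0.36 with each library left out and called in 3 of 6 such fits. FCER1G ranged from 0.17 to 0.74 and HCST from 0.58 to 1.17, and neither was called under any alternative. At the study's thresholds 794 genes were higher and 691 lower. No paired analysis was possible because the human control columns carry no replicate number. With a mean CPM of at least 1, FCER1G and HCST were not tested. Depth limits FCER1G, HCST and TYROBP in NK92MI, at 4 to 24 counts a library.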
